A study of Mus musculus with 6 samples.

Results

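The genes described here are the 31 that carry pyruvate into the mitochondrion, feed its carbon into the tricarboxylic acid (TCA) cycle, turn that cycle, and move reducing equivalents across the inner membrane by the malate-aspartate shuttle. They were listed by symbol as genes of these pathways, with earlier results of these data known. All 31 were found by their Ensembl identifiers among the 49315 genes of the deposited count table. All 31 also passed the filter on low counts, so they are 31 of the 12777 genes tested. RNA was sequenced in 3 heart libraries from C57BL/6 mice with a conditional knock-in allele, Txnip C247S mutant. Another 3 heart libraries came from C57BL/6 mice labelled wild-type, Txnip WT. Each library is called a heart here, though the labels do not say that the samples are separate animals. The labels give MerCreMer, a Cre recombinase that tamoxifen-type ligands switch on, together with 4-hydroxytamoxifen, for the hearts of both genotypes. They name no promoter for that recombinase, do not state whether the wild-type animals carried it, and give neither age nor sex. The comparison asks how the heart transcriptome differs when this cysteine of Txnip, the thioredoxin-interacting protein, is replaced.

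Pyruvate enters the mitochondrial matrix through a carrier made of the MPC proteins. The pyruvate dehydrogenase complex then converts it to acetyl-CoA, whereas pyruvate carboxylase converts it to oxaloacetate and so refills the cycle. The cycle oxidises acetyl-CoA to carbon dioxide and passes electrons to NADH and, at succinate dehydrogenase, directly to the respiratory chain. Because NADH does not cross the inner membrane, cytosolic and mitochondrial malate dehydrogenases and aspartate aminotransferases, joined by carriers, move its electrons inward. The heart, which lives mainly from oxidation of fatty acids, lactate and glucose, expresses most of these genes at high levels.

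Library totals ran from 14737704 to 15620476 counts in the knock-in hearts and from 14146048 to 14560325 in the wild-type hearts. Txnip itself fell to 419.6 ± 25 CPM (the count scaled to a common library size) in knock-in hearts, against 752 ± 35.3 CPM in wild-type hearts (SD, n = 3 each, edgeR adjusted p = 0.00379). The gene count does not read the edited codon. All 8 cardiomyocyte markers were tested, with summed levels of 70167 to 80499.7 CPM in knock-in and 66444 to 69953 CPM in wild-type hearts, while none of 4 liver markers had enough counts to be tested. All 5 red-cell markers were higher in the knock-in hearts, with summed levels of 1447 to 1916 CPM against 463 to 635 CPM in wild-type hearts. Wild-type replicate 3 had the highest share of mitochondrially encoded counts, 28.0% against 22.9% to 24.3% in the other hearts. Of 4 atrial markers, Nppa and Myl4 were tested, while Myl7 had at most 5 counts and Sln at most 4 in any library. In RNA from heart tissue, fewer cells of a type and less RNA per cell cannot be told apart.

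None of the 31 members was called by edgeR at a Benjamini-Hochberg adjusted p under 0.05, where 0.297% of all tested genes were. Pcx, pyruvate carboxylase, had the smallest adjusted p, 0.0883, and the member after it, Got2, had 0.392. DESeq2 called 1 member, Pcx, against 0.950% of all genes it tested. At an unadjusted edgeR p under 0.05, 1 member was higher (3.23% of the 31, against 4.74% of all genes) and 2 were lower (6.45%, against 5.23%). The knock-in and wild-type values did not overlap in 8 members. Of these, 5 were higher in the knock-in hearts, 16.1% of the 31 against 8.12% of all tested genes, and 3 were lower, 9.68% against 7.99%. The summed cardiomyocyte and red-cell markers given above were also higher in every knock-in heart than in any wild-type heart. The cardiomyocyte sums nearly met, at 70167 CPM in the lowest knock-in and 69953 CPM in the highest wild-type heart. Of the 8 cardiomyocyte markers 0 were called by edgeR and 2 had groups apart, with a median log2 fold change of 0.10. All 5 red-cell markers were called. The part of either set in these differences was not tested.

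The differences were small and most were bounded closely. Of the 31 log2 fold changes, knock-in over wild-type, 28 lay within 0.2 of 0, and their median was 0.05 against −0.01 over all tested genes. Standard errors ran from 0.08 to 0.27 with a median of 0.10. For 29 members the 95% interval of the log2 fold change stayed inside a 1.5-fold change in either direction (log2 0.58). The exceptions were Pcx, whose interval of −0.89 to −0.34 lay wholly below 0, and Slc25a1, with an interval of −0.71 to 0.47. Of the 31 values 20 were positive (64.5%, against 48.3% of all tested genes), but 16 were with library size alone as the scaling and 15 in the 4 hearts without knock-in replicate 2 and wild-type replicate 3.

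**Figure D1:**
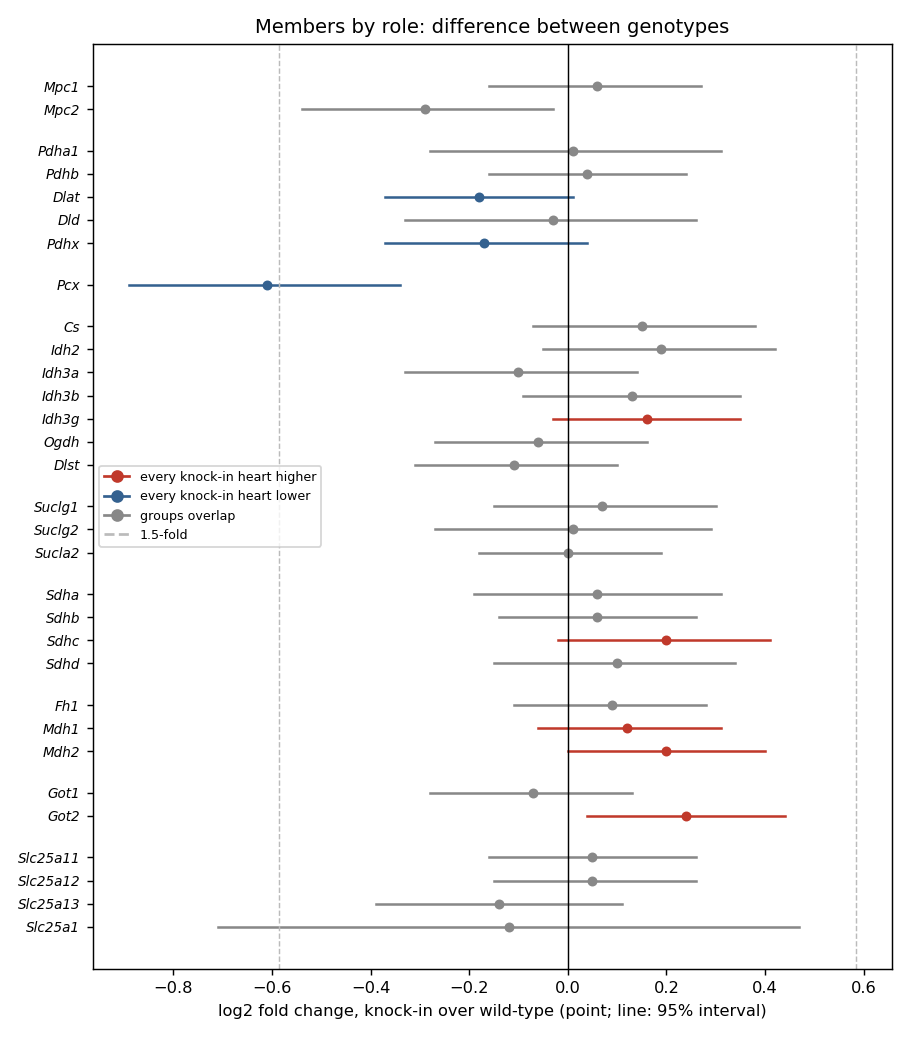
Log2 fold change (x axis, knock-in over wild-type) of the 31 members (y axis, in blocks by role), with points for the edgeR estimate and lines for its 95% interval. The interval of Pcx, −0.89 to −0.34, lies left of 0, most other intervals span 0, and colours mark the 8 members whose groups do not overlap.

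Levels were compared between members as CPM per kilobase of the longest principal transcript. The most abundant were Mdh2 and Mdh1, the mitochondrial and cytosolic malate dehydrogenases, at 1354 ± 34.1 and 1285 ± 64.5 CPM per kilobase in knock-in hearts, against 1182 ± 90.0 and 1179 ± 2.57 in wild-type hearts (SD, n = 3 each). Idh2, the NADP-dependent isocitrate dehydrogenase of the matrix, followed with 1269 ± 101 in knock-in and 1115 ± 119 in wild-type hearts, and these 3 genes did not differ from each other beyond their spread in knock-in hearts. Sdhb, of succinate dehydrogenase, came next by mean level. At the other end stood Pcx, at 8.27 ± 1.04 in knock-in and 12.7 ± 1.14 CPM per kilobase in wild-type hearts, and Slc25a1, the citrate carrier, at 2.32 ± 0.82 in knock-in and 2.52 ± 0.206 in wild-type hearts. Pcx and Slc25a1 kept the lowest places when the union of all exons was used as the length, but Mdh2 then stood at place 4 and Mpc2 dropped from place 17 to 28.

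**Figure D2:**
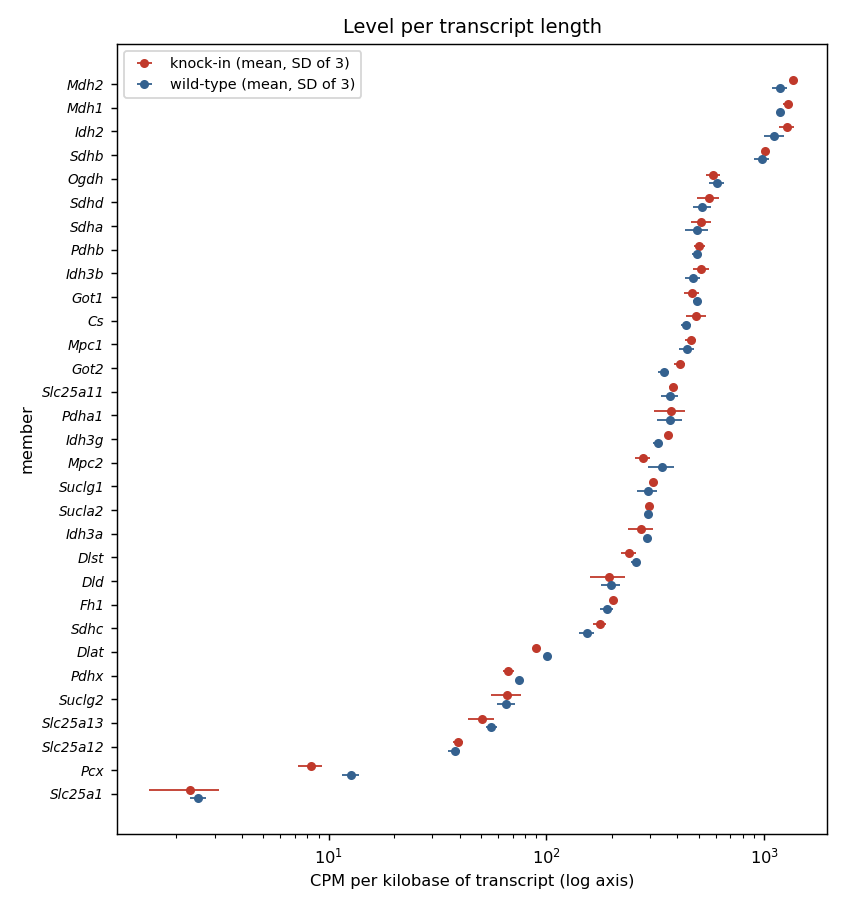
Level of each member (y axis, in order of its mean level) as CPM per kilobase of transcript on a log axis, with points for the mean and lines for the SD of 3 hearts per genotype. Mdh2 leads at 1354 in knock-in and 1182 in wild-type hearts, and Pcx (8.27 and 12.7) and Slc25a1 (2.32 and 2.52) stand apart at the low end.

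Mpc1 and Mpc2 encode the partners that together form the mitochondrial pyruvate carrier. Mpc2 (chromosome 1, 165460637 to 165481214, GRCm38) had 309, 269 and 274 CPM in the knock-in hearts, against 355, 389 and 296 CPM in the wild-type hearts. Knock-in replicate 1 lay above wild-type replicate 3, so the groups overlapped. On the log2 scale the difference was −0.29 ± 0.12 (SE, unadjusted p = 0.0303, adjusted p = 0.435 by edgeR). Mpc1 averaged 440.2 ± 27.2 CPM in knock-in and 422 ± 34.0 CPM in wild-type hearts (SD, n = 3 each), with a log2 fold change of 0.06 ± 0.10. Of the 31-base words of its transcript, 24.8% also occur in the expressed pseudogene Mpc1-ps (53.5 ± 4.82 CPM in knock-in and 48.7 ± 4.28 CPM in wild-type hearts), so reads could have moved between them.

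The pyruvate dehydrogenase complex joins a decarboxylase (Pdha1 and Pdhb), an acetyltransferase core (Dlat), a dehydrogenase that reoxidises the lipoyl groups (Dld) and a protein that binds that dehydrogenase to the core (Pdhx). The core acetyltransferase Dlat (chromosome 9, 50634633 to 50659780) had 365, 369.7 and 348 CPM in the knock-in hearts, against 409, 403 and 416 CPM in the wild-type hearts. Every knock-in value lay below every wild-type value, and the difference on the log2 scale was −0.18 ± 0.09 (SE; adjusted p = 0.516 by edgeR). Pdhx, its neighbour in the complex, had 169.6, 177 and 157 CPM in the knock-in hearts, against 193, 189 and 184 CPM in the wild-type hearts. Here too the groups did not overlap, and the difference on the log2 scale was −0.17 ± 0.09 (adjusted p = 0.613). The decarboxylase and dehydrogenase genes had values nearer 0, with log2 fold changes of 0.01 ± 0.13 for Pdha1, 0.04 ± 0.09 for Pdhb and −0.03 ± 0.13 for Dld. Pdha1 and Dld were also among the members that varied most within a genotype, with a within-genotype SD of 0.21 on the log2 scale each, against a median of 0.10 over the 31. Of the words of Pdha1, 18.4% also occur in Map3k15, which overlaps it on the opposite strand and stood at 1.22 ± 0.201 CPM in knock-in and 1.08 ± 0.182 CPM in wild-type hearts.

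Pcx encodes pyruvate carboxylase, the biotin enzyme that makes oxaloacetate from pyruvate, and was the member with the largest difference. Pcx (ENSMUSG00000024892, chromosome 19, 4510472 to 4621752, plus strand) had 31.5, 38.5 and 30.8 CPM in the knock-in hearts, against 54.8, 46.1 and 53.3 CPM in the wild-type hearts. The highest knock-in heart, replicate 2, stayed below the lowest wild-type heart, replicate 2. Group means were 33.6 ± 4.24 CPM in knock-in and 51.4 ± 4.64 CPM in wild-type hearts (SD, n = 3 each), from 452 to 584 counts per knock-in library and 666 to 804 per wild-type library. The log2 fold change was −0.61 ± 0.12 (SE), a 1.53-fold lower level in the knock-in hearts, with an unadjusted p of 4.42e-04 and an adjusted p of 0.0883 by edgeR. Permuting the 6 hearts exactly gave a two-sided p of 0.1, the smallest that 3 against 3 allows. The gene passed the threshold with DESeq2 (adjusted p = 0.00918), without a filter (edgeR adjusted p = 5.38e-04) and without knock-in replicate 2 (−0.71, edgeR adjusted p = 0.0127). More genes were called in general under these settings, 1.46% of all genes without a filter and 1.34% without that heart. At an adjusted p under 0.1 in the reported fit, which Pcx passed, 0.587% of all genes were called. Its edgeR, DESeq2 and limma-voom adjusted p ran from 5.38e-04 to 0.462 over the alternatives, and its log2 fold change from −0.71 to −0.55 when single hearts were left out. None of its words occur in transcripts of other genes.

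Marker sets of other cell types are given beside Pcx as a description. All 9 macrophage markers had negative log2 fold changes, with a median of −0.44 and 1 called, Lyz2, and their summed level was 253 to 272 CPM in knock-in and 334 to 386 CPM in wild-type hearts, with no marker at 0. Adipocyte markers had a summed level of 10.3 to 15.7 CPM in knock-in and 8.44 to 11.9 CPM in wild-type hearts, nearly all of it Pparg. The defining adipocyte markers Plin1 and Lep had 0 counts in all 6 libraries, and Adipoq had at most 1 count in any. Smooth muscle markers summed to 496 to 508 CPM in knock-in and 594 to 653 CPM in wild-type hearts, with 1 of 5 called, Acta2 (log2 fold change −1.24), and none at 0. Their median log2 fold change was −0.08 with 2 of 5 positive, and the other 4 summed to 414 to 435 CPM in knock-in and 413 to 467 CPM in wild-type hearts, with overlap. Fibroblast markers had a median log2 fold change of 0.16, with 4 positive and 3 negative. Endothelial markers had a median of 0.14, with 4 positive and 2 negative. Both tested atrial markers had positive values. The part of macrophages, or of any other cell type, in the result for Pcx was not tested.

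The promoter windows of Pcx are shown because the gene has the largest difference and 2 annotated starts, which gene counts do not tell apart. Each window holds the bases from 250 before to 50 after a RefSeq start (GRCm38.p6, plus strand), 5′ to 3′, and capitals mark every CACGTG (an E-box, the core of the sites bound by the glucose sensors MondoA and ChREBP) and every CCAAT box in either direction. The upstream window lies at chr19:4510222-4510521 and the downstream one at chr19:4594069-4594368.
Pcx upstream start: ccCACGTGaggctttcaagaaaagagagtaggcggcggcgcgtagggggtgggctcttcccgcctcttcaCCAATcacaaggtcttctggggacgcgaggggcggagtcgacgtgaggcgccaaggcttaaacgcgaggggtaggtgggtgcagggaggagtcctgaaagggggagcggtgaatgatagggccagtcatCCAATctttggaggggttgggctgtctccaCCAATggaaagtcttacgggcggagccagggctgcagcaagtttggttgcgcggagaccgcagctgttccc
Pcx downstream start: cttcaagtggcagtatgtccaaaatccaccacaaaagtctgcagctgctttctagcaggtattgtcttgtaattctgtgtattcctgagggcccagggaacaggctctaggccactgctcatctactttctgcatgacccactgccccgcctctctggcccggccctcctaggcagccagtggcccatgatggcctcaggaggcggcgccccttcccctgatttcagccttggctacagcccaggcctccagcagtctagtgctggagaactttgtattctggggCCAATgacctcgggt
The upstream window holds 1 E-box and 3 CCAAT boxes, and the downstream window holds 1 CCAAT box and no E-box.

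RefSeq promoter windows were found for 29 of the 31 members, 36 windows in all, and neither Idh3a nor Sdhc had one. CACGTG, searched on both strands, occurred in 6 of the 36 windows (16.7%), against 7.15% of 32851 windows of all genes. These windows belonged to Pcx, Slc25a13, Slc25a1 and Ogdh, and those of Ogdh overlap in part. The letters CCAAT occurred in 25 windows (69.4%, against 37.4% of all windows) from 19 members. All windows of Ogdh hold CCAAT, and some of its overlapping windows hold the same match, so the window shares count Ogdh more than once. By member, 19 of 29 had CCAAT and 4 of 29 had CACGTG, and no share by gene was computed over all genes. TNAAGGTCA, the element of oestrogen-related receptors, which are known regulators of oxidative genes in heart, occurred in 1 window (2.78%, against 1.28%), that of Sdhd. A match is a run of letters in a window and shows no binding.

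The first span of the cycle runs from citrate synthase (Cs) through the isocitrate dehydrogenases (Idh2, Idh3a, Idh3b, Idh3g) to the oxoglutarate dehydrogenase complex (Ogdh and Dlst, with Dld shared with pyruvate dehydrogenase). Of its 7 genes here, 1, Idh3g, had groups that did not overlap. Idh3g, a regulatory subunit of the NAD-dependent isocitrate dehydrogenase, had 466, 489 and 487 CPM in the knock-in hearts, against 438, 448 and 406 CPM in the wild-type hearts, with a log2 fold change of 0.16 ± 0.09 (SE, edgeR adjusted p = 0.612). The other subunits of that enzyme had −0.10 ± 0.10 for the catalytic Idh3a and 0.13 ± 0.10 for Idh3b. The 95% intervals of both spanned 0, so their signs cannot be compared. Citrate synthase averaged 1427 ± 151 CPM in knock-in and 1282 ± 68.3 CPM in wild-type hearts, and Idh2 averaged 2215 ± 176 CPM in knock-in and 1946 ± 208 CPM in wild-type hearts (SD, n = 3 each). The oxoglutarate dehydrogenase genes lay slightly below 0, with log2 fold changes of −0.06 ± 0.10 for Ogdh and −0.11 ± 0.09 for Dlst. Adjusted p-values in this span were 0.612 or more by edgeR.

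Succinyl-CoA ligase pairs a common subunit, Suclg1, with either Sucla2, which uses ADP, or Suclg2, which uses GDP. All 3 log2 fold changes lay between 0.00 and 0.07. Suclg1 had 484, 463 and 455 CPM in the knock-in hearts, against 473, 470.4 and 389 CPM in the wild-type hearts, with 0.07 ± 0.10 on the log2 scale. Sucla2 had the smallest within-genotype SD of the 31 when both genotypes were pooled, 0.03 on the log2 scale. It stood at 658 ± 7.32 CPM in knock-in and 656 ± 14.7 CPM in wild-type hearts (SD, n = 3 each), and the 95% interval of its log2 fold change was −0.18 to 0.19. Suclg2 stood at 222 ± 35.1 CPM in knock-in and 220.2 ± 21.1 CPM in wild-type hearts. Per kilobase, Sucla2 lay well above Suclg2 in both genotypes, at 295 ± 3.28 against 65.8 ± 10.4 in knock-in hearts and 294 ± 6.59 against 65.4 ± 6.26 in wild-type hearts. Of the words of Suclg2, 27.3% also occur in Gm15163, which had at most 14 counts in any library.

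Succinate dehydrogenase, complex II of the respiratory chain, holds a flavoprotein (Sdha), an iron-sulfur protein (Sdhb) and a pair of membrane anchors (Sdhc and Sdhd). Sdhc had 539, 600.1 and 534 CPM in the knock-in hearts, against 474, 529 and 457 CPM in the wild-type hearts. Every knock-in value lay above every wild-type value, though knock-in replicate 3 and wild-type replicate 2 nearly met, with 0.20 ± 0.10 on the log2 scale (SE, adjusted p = 0.547 by edgeR). The other subunits overlapped between genotypes, with log2 fold changes of 0.06 ± 0.11 for Sdha, 0.06 ± 0.09 for Sdhb and 0.10 ± 0.11 for Sdhd. Sdhd lies 30821 bases from Dlat on chromosome 9. The 95% intervals of both spanned 0, −0.15 to 0.34 for Sdhd and −0.37 to 0.01 for Dlat, so their signs cannot be compared.

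Fumarase (Fh1) and the malate dehydrogenases close the cycle, and Mdh2 of the matrix and Mdh1 of the cytosol are also the malate enzymes of the shuttle. Mdh2 (chromosome 5, 135778480 to 135790398) had 2019, 1920.3 and 1973 CPM in the knock-in hearts, against 1816, 1777 and 1572 CPM in the wild-type hearts. The groups did not overlap, and wild-type replicate 3 was the lowest heart. On the log2 scale the difference was 0.20 ± 0.09 (SE, adjusted p = 0.509 by edgeR), and 0.13 was the lowest value when single hearts were left out. Mdh1 had 2681, 2879 and 2617 CPM in the knock-in hearts, against 2496, 2505 and 2506 CPM in the wild-type hearts, again without overlap, with 0.12 ± 0.08 on the log2 scale (adjusted p = 0.700). Fh1 averaged 532 ± 9.54 CPM in knock-in and 501 ± 33.8 CPM in wild-type hearts (SD, n = 3 each), and its values overlapped.

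The aspartate aminotransferases complete the shuttle by exchanging oxaloacetate and aspartate on either side of the membrane. Got2, the mitochondrial enzyme (chromosome 8, 95864134 to 95888547), had 974, 1091 and 1044 CPM in the knock-in hearts, against 831, 927 and 870.5 CPM in the wild-type hearts. All knock-in hearts were above all wild-type hearts, with a log2 fold change of 0.24 ± 0.09 (SE, 95% interval 0.04 to 0.44, unadjusted p = 0.0217, edgeR adjusted p = 0.392). Got1, the cytosolic enzyme, averaged 958 ± 76.8 CPM in knock-in and 1008 ± 34.1 CPM in wild-type hearts (SD, n = 3 each), a log2 fold change of −0.07 ± 0.09. Of the words of Got2, 45.6% also occur in Gm10874, which had 0 counts in all 6 libraries, so the level of Got2 depends on how shared reads were counted.

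Among the carriers, the groups overlapped in all 4 genes. Slc25a11 exchanges malate for oxoglutarate, and Slc25a12 and Slc25a13 (aralar and citrin) exchange aspartate for glutamate. Slc25a13 had 144, 183 and 147 CPM in the knock-in hearts, against 163, 182 and 178 CPM in the wild-type hearts, with overlapping groups and a log2 fold change of −0.14 ± 0.11 (SE, edgeR adjusted p = 0.757). Slc25a12 had a log2 fold change of 0.05 ± 0.09. Slc25a11 stood at 654 ± 26.0 CPM in knock-in and 632 ± 56.3 CPM in wild-type hearts (SD, n = 3 each). Slc25a1, which exports citrate, was the member with the lowest counts, 35 to 74 per knock-in library and 55 to 64 per wild-type library, and its values, 3.87 ± 1.37 CPM in knock-in and 4.20 ± 0.343 CPM in wild-type hearts, with knock-in replicate 2 the lowest heart at 2.31 CPM. Its log2 fold change was −0.12 ± 0.27, and 0.16 without that heart.

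**Figure D3:**
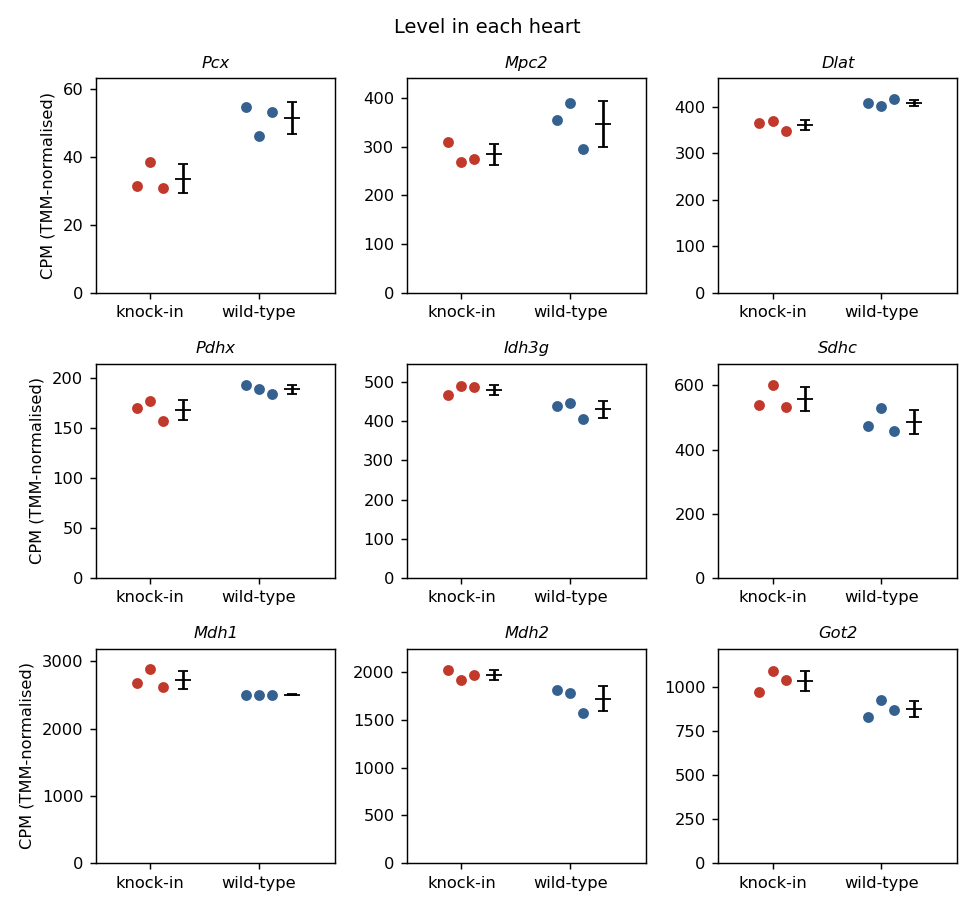
Level in each heart (y axis, CPM from 0) of 9 members in knock-in and wild-type hearts (x axis), with bars for the mean and SD of 3 hearts. Pcx, Dlat and Pdhx are lower and Idh3g, Sdhc, Mdh1, Mdh2 and Got2 higher in every knock-in heart than in any wild-type heart, while Mpc2 overlaps (269 to 309 against 296 to 389 CPM).

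Ratios of counts between partner genes within a heart do not depend on scaling, and 6 were compared, each with an exact two-sided permutation test over the 6 hearts. The log2 ratio of Got1 to Got2 was −0.04, −0.07 and −0.24 in the knock-in hearts, against 0.33, 0.12 and 0.16 in the wild-type hearts, a difference of −0.32. All knock-in ratios were below all wild-type ratios (exact p = 0.1, adjusted over the 6 ratios 0.2). The log2 ratio of Mpc1 to Mpc2 was 0.45, 0.81 and 0.64 in the knock-in hearts, against 0.27, 0.22 and 0.38 in the wild-type hearts, a difference of 0.34 without overlap (exact p = 0.1, adjusted 0.2). The ratio of Pcx to Pdha1, the entries of pyruvate to oxaloacetate and to acetyl-CoA, differed by −0.63, also without overlap (exact p = 0.1, adjusted 0.2). The log2 fold changes of these genes were −0.61 for Pcx and 0.01 for Pdha1, so this ratio mostly repeats the difference of Pcx. The ratio of Slc25a12 to Slc25a13 differed by 0.20, with overlap (exact p = 0.2), and that of Mdh1 to Mdh2 by −0.08 (exact p = 0.5). The ratio of Sucla2 to Suclg2 was 1.58 ± 0.24 in knock-in and 1.58 ± 0.12 in wild-type hearts (SD, n = 3 each, exact p = 1). No ratio could have passed the threshold, since 0.1 is the smallest p that this design gives.

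**Figure D4:**
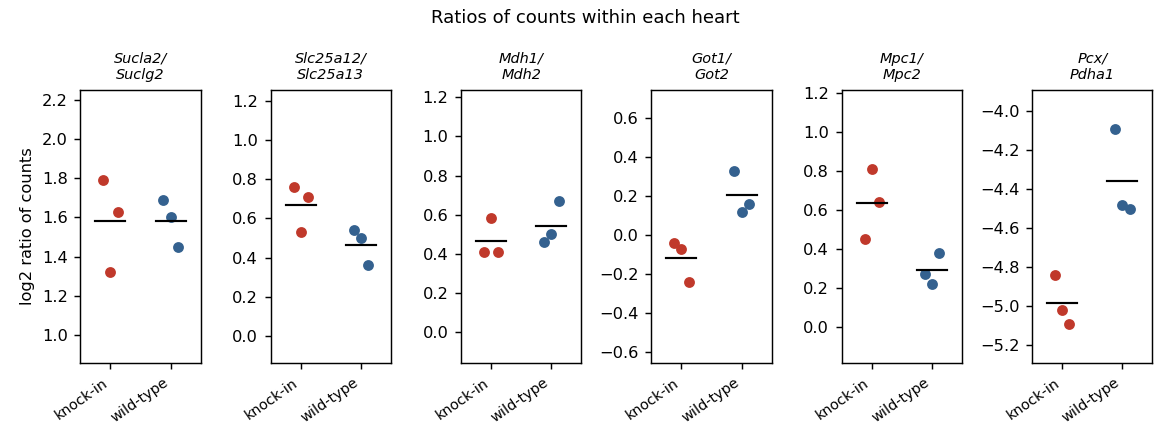
Log2 ratio of counts of 6 gene pairs (y axis, each panel spanning the same number of log2 units) in each knock-in and wild-type heart (x axis), with lines for the mean. The groups separate for Got1/Got2, Mpc1/Mpc2 and Pcx/Pdha1 and overlap for the other pairs.

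The summed level of the 31 members was 24670.3, 27425 and 25357 CPM in the knock-in hearts, against 24381, 25366 and 24373 CPM in the wild-type hearts. Knock-in replicate 2 had the highest value of the 6 hearts in 16 members, and wild-type replicate 3 had the lowest in 13. These hearts did not simply mirror each other. In 12 members, among them Idh2, Idh3b, Sdhc and Sdhd, knock-in replicate 2 was the highest of its group and wild-type replicate 3 the lowest of its own. In 7 others, Pdha1, Dlat, Dld, Ogdh, Suclg2, Sdha and Mdh1, both of these hearts were the highest of their groups. Without these 2 hearts, a choice made after seeing the data, edgeR called 1 member, Pcx, with a log2 fold change of −0.69 (adjusted p = 0.00182). That is 3.23% of the 31 members, near the 3.04% of all genes called in the same 4 hearts.

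**Figure D5:**
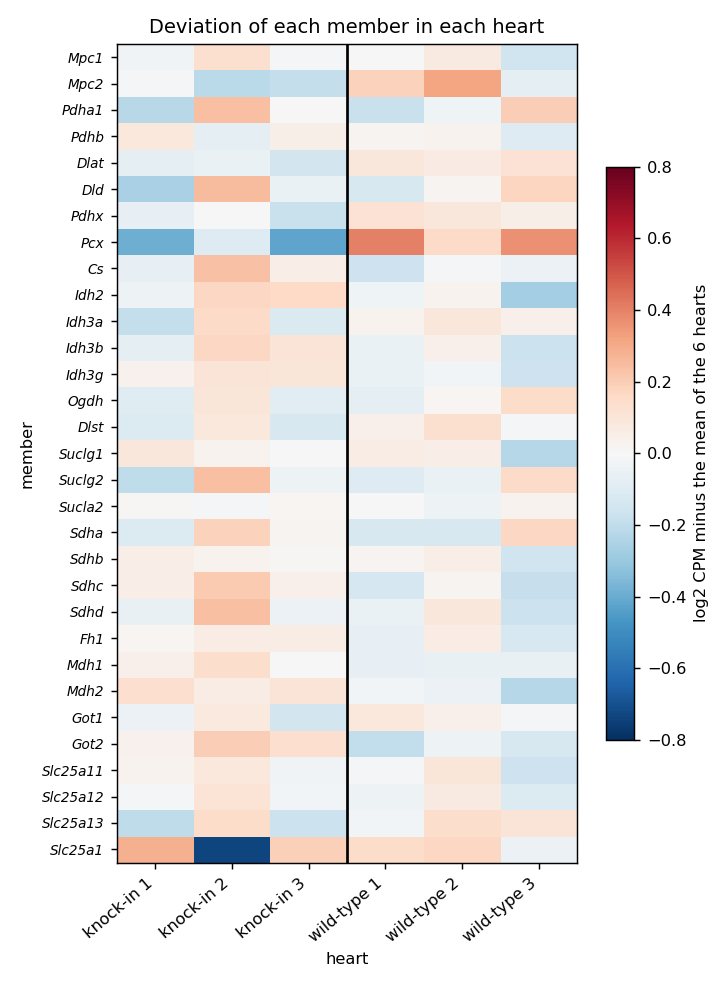
Deviation of log2 CPM of each member (rows) in each heart (columns) from the mean of the 6 hearts, with red above and blue below the mean. Pcx differs by genotype in all hearts, whereas knock-in 2 is the highest heart in 16 members and wild-type 3 the lowest in 13.

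Among 39 other genes of the pathway, 36 were tested and 0 were called by edgeR or DESeq2, with a median log2 fold change of 0.01. At an unadjusted edgeR p under 0.05, 2 of the 36 were higher and 4 lower. Over all tested genes, 4.74% were higher and 5.23% lower at that threshold. Gpd1, the cytosolic enzyme of the glycerophosphate shuttle, which also carries NADH electrons inward, had 0.37 ± 0.11 (edgeR adjusted p = 0.258), and all knock-in hearts were above all wild-type hearts. Lower values came from Gpt, an alanine aminotransferase (−0.41 ± 0.14), Slc25a22, a glutamate carrier (−0.33 ± 0.12), Idh1, the cytosolic isocitrate dehydrogenase (−0.30 ± 0.12), and Dhtkd1, a relative of Ogdh near 1 CPM (−0.73 ± 0.28). The 7 pyruvate dehydrogenase kinases and phosphatases included no call. Pdk4, the kinase that responds to fasting, had 149, 96.8 and 159 CPM in the knock-in hearts, against 60.8, 71.5 and 134 CPM in the wild-type hearts, with overlap.

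Set beside other oxidative genes, 37 nuclear genes of complex I had a median log2 fold change of 0.16 with 31 positive and 15 non-overlapping higher (40.5%), and 23 genes of fatty acid uptake and oxidation had 0.17 with 20 positive and 11 non-overlapping higher (47.8%). The 31 members had 0.05, with 20 positive and 5 non-overlapping higher (16.1%), and over all tested genes 8.12% were. None of the genes on these lists was called by edgeR. DESeq2 called 3 of the 23 fatty acid genes and 0 of the complex I genes, against 0.950% of all genes it tested. The differences between the lists were not tested.

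The genes whose level followed Pcx most closely over the 6 hearts were Scara5, Sbf1, 4930481A15Rik, Zfp931 and Gm14418, with Pearson correlations of log2 CPM of 0.9964, 0.9904, 0.9882, 0.9857 and 0.9853. These are descriptions over 6 hearts that share the difference between genotypes, and 60 genes exceeded 0.95. Scara5, a scavenger receptor, had 9.37, 13.2 and 9.54 CPM in the knock-in hearts, against 20.9, 16.6 and 21.7 CPM in the wild-type hearts, and its edgeR adjusted p was 0.0789.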

How the data were processed

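The authors deposited 1 table of whole-number read counts per Ensembl gene for 6 heart RNA libraries. Named in the submitters' processing notes, without roles, are STAR, featureCounts, Subread 1.5.2 and DESeq2, with the build GRCm38.p6. How strand and multiply matching reads were handled is not given in the sources used here. Columns were matched to samples by their descriptions. Symbols and positions came from GENCODE M21 (GRCm38), which lacked 259 of 49315 identifiers. Pairs of replicate libraries had chi-square values of 7.16 to 27.0 per degree of freedom, above sampling noise, and each library was 1 replicate. The labels do not say that samples are separate animals, so p-values measure the spread between these libraries. Replicate numbers follow accession order.

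Counts were tested over all genes with edgeR 4.0.16 in R 4.3.3 (filterByExpr, TMM, robust glmQLFit, glmQLFTest on genotype, no covariate), after a check of the functions on simulated data. CPM use TMM-normalised library sizes, and 95% intervals use the degrees of freedom of the fit. The floor of 3 counts was 0.192 to 0.212 CPM, and covers counting error only. Alternatives were other scalings and filters, DESeq2 1.42.0, limma-voom (limma 3.58.1), each library left out, mitochondrial genes left out or their share as a covariate, and an adjusted p under 0.1. Sequence sharing is the share of 31-base words of the longest transcript found in other genes' transcripts. The members and lists were chosen with earlier results of these data known. All members are named. Values per heart are given for the member with the smallest p in each role and for members whose groups do not overlap at an unadjusted p under 0.05. Those of Pdhx, Mdh1, Pdk4 and Scara5 were added after their values were seen. Other pathway genes are named at an unadjusted p under 0.05, and a result that met this rule is not reported here.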

Additional observations from a re-analysis of the deposited data

How the results depend on the processing

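The count of members called higher was 0 under all alternatives run. The count called lower, 0 in the reported fit, was 1 (Pcx) without a filter, with DESeq2, at an adjusted p under 0.1 and in the 4 libraries left after dropping both knock-in replicate 2 and wild-type replicate 3, a choice made after seeing the data; it ran from 0 to 1 when single libraries were left out, and was 1 without knock-in replicate 2. Calls over all genes moved as well, with 317 of 21655 without a filter, 134 of 14098 with DESeq2, 3.04% of 12881 in the 4 libraries, 174 of 13004 without knock-in replicate 2 and 75 of 12777 at an adjusted p under 0.1, against 38 of 12777 in the reported fit. The median log2 fold change ran from 0.01 to 0.08 without single libraries. Of 527 values of single members under alternatives, 487 kept their direction and their side of the threshold, 36 turned sign and 4, all of Pcx, newly passed. The 17 members that never turned sign include Pcx, Mpc2, Dlat, Pdhx, Idh3g, Sdhc, Mdh1, Mdh2 and Got2. The causes were not tested.

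With the mitochondrial share as a covariate the log2 fold changes that turned were Mpc1 −0.0011, Pdhb −0.02, Dld 0.08, Ogdh 0.02, Suclg1 −0.03, Sdhb −0.02 and Slc25a11 −0.02. In the 4 libraries they were Mpc1 −0.05, Pdha1 −0.0009, Suclg2 −0.03, Sdhd −0.06, Slc25a11 −0.04, Slc25a12 −0.02 and Slc25a1 0.09. With library size alone they were Pdha1 −0.03, Pdhb −0.0011, Suclg2 −0.03 and Sucla2 −0.04, and with upper-quartile factors Sucla2 −0.0032. Leaving out single libraries, the ranges that crossed 0 were −0.0025 to 0.11 for Mpc1, −0.11 to 0.13 for Pdha1, −0.002 to 0.09 for Pdhb, −0.17 to 0.09 for Dld, −0.11 to 0.01 for Ogdh, −0.01 to 0.12 for Suclg1, −0.11 to 0.11 for Suclg2, −0.01 to 0.02 for Sucla2, −0.01 to 0.17 for Sdha, −0.01 to 0.10 for Sdhb, −0.01 to 0.11 for Slc25a11 and −0.30 to 0.16 for Slc25a1. For the log2 ratio of Sucla2 to Suclg2 the range was −0.10 to 0.13. No paired analysis was possible because the labels number no replicates that the genotypes share.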
